A study of Homo sapiens with 12 samples.

Results

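The epithelial-mesenchymal switch regulators examined here were 10 genes, SNAI1, SNAI2, TWIST1, TWIST2, ZEB1, ZEB2, OVOL1, OVOL2, ESRP1 and ESRP2, chosen by name as the core transcription factors and splicing factors that set the epithelial or mesenchymal state, out of 51838 genes in the count table. They were followed in HCC70 and MDA-MB-231, which are established lines from human breast cancers and are labelled basal-like, each treated for 4 h with 100 nM dexamethasone or with an equal volume of ethanol as vehicle. Dexamethasone is a synthetic glucocorticoid that activates the glucocorticoid receptor, the product of NR3C1, and the study asked which genes this receptor and STAT3 regulate. The 4 groups were HCC70 with dexamethasone, HCC70 with vehicle, MDA-MB-231 with dexamethasone and MDA-MB-231 with vehicle, each with 3 libraries, 12 in all. No genetic alteration was made in either line. The culture medium was RPMI for HCC70 and DMEM for MDA-MB-231, and effects of medium and of line cannot be told apart. Whether replicates were separate cultures is not stated in the labels, and p-values here measure only a spread between libraries that may be technical.

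An epithelial cell is held to its neighbours by E-cadherin and tight junctions, and it loses these contacts and gains motility when it passes to a mesenchymal state. SNAIL (SNAI1), SLUG (SNAI2), TWIST1, TWIST2, ZEB1 and ZEB2 are DNA-binding factors that recognise E-boxes in the promoters of epithelial genes and push a cell towards the mesenchymal state. OVOL1 and OVOL2 are zinc-finger repressors that hold the epithelial state, in part by repressing ZEB1, and ESRP1 and ESRP2 are RNA-binding proteins that produce the epithelial splice forms of genes such as FGFR2 and CD44. ZEB1 and ZEB2 form a double-negative loop with the microRNAs of the miR-200 family, which bind the 3′ untranslated regions of both ZEB transcripts and whose genes both factors repress.

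The miR-200 seeds and their matches in the ZEB transcripts are shown because the ZEB genes separated the lines more widely than any other mesenchymal-state member. The capitals mark the seed, bases 2 to 8, of each mature microRNA (RefSeq, GRCh38.p14). The first 3 share one seed, the next 2 share another, and miR-205-5p has its own.
miR-200b-3p: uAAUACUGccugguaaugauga
miR-200c-3p: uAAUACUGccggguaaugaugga
miR-429: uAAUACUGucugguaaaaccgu
miR-200a-3p: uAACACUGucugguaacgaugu
miR-141-3p: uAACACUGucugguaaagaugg
miR-205-5p: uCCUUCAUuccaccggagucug
The loci of miR-200b-3p (positions 1167160 to 1167181), miR-200a-3p (1167916 to 1167937) and miR-429 (1169055 to 1169076) lie close together on the plus strand of chromosome 1. Those of miR-200c-3p (6963742 to 6963764) and miR-141-3p (6964155 to 6964176) lie on the plus strand of chromosome 12, and miR-205-5p (209432166 to 209432187) lies elsewhere on chromosome 1.

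In the longest coding transcripts of the GENCODE v29 annotation (GRCh38), the 2549-base 3′ untranslated region of ZEB1 held 6 matches to the first seed (CAGTATT, read on the transcript strand), 3 to the second (CAGTGTT) and 1 to the miR-205-5p seed (ATGAAGG). The 5370-base region of ZEB2 held 5, 4 and 0. Within the first 1000 bases after the stop codon the counts for the first seed were 3 in ZEB1 and 4 in ZEB2, whereas 11.2% of 9792 genes with at least that length held any match. For CAGTGTT the counts in this window were 1 in ZEB1 and 3 in ZEB2, and the background share was 13.2%. For ATGAAGG they were 1 in ZEB1 and 0 in ZEB2, and the share was 7.71%. Of the other members, over the whole region, SNAI2 (1203 bases) held 1 match to the first seed. ESRP1 (1577 bases) held 1 match to each of the first and second seeds. SNAI1, TWIST1, TWIST2, OVOL1, OVOL2 and ESRP2 held none of the 3, in regions of 830, 706, 737, 1878, 484 and 1100 bases. All of these regions are shorter than those of the ZEB genes, so the counts are set at unlike lengths. These letter matches do not show that a site is used. An example of each kind from each gene, 22 bases long with the match in capitals, is given next. They lie on the plus strand for ZEB1 (chr10:31527619-31527640, chr10:31528032-31528053 and chr10:31528068-31528089) and on the minus strand for ZEB2 (chr2:144389052-144389073 and chr2:144389236-144389257), all in GRCh38 and all exonic, within the 3′ untranslated region.
ZEB1, first seed: ttgttttatcttatCAGTATTa
ZEB1, second seed: aaaatcatcagaatCAGTGTTt
ZEB1, miR-205-5p seed: atatgtggtaacatATGAAGGa
ZEB2, first seed: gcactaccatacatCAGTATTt
ZEB2, second seed: gcaaaaattttgtaCAGTGTTa

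Sequencing depth was even, with 106345287 to 123218973 gene counts per library. Levels are given as CPM, counts scaled to a common library size with TMM factors, which corrects for differences in library composition. A limit of 3 counts over a group corresponds to 0.00782 to 0.00898 CPM, and it covers counting error only. Dexamethasone acted in both lines: FKBP5, a classic receptor target, was 6.2-fold higher in treated HCC70 and 19.9-fold higher in treated MDA-MB-231. NR3C1, the receptor gene, read 52.1 CPM with dexamethasone and 56.6 CPM with vehicle in HCC70 (adjusted p = 0.346), and was 1.41-fold lower with dexamethasone in MDA-MB-231 (adjusted p = 0.000112). All 8 basal-like markers read at least 1 CPM in HCC70, and 5 or 6 of them did so in MDA-MB-231. KRT14 was there at 0.167 ± 0.19 CPM with dexamethasone and 0.238 ± 0.23 CPM with vehicle (SD, n = 3 each). KRT5, KRT17, KRT6B and CDH3 read 0.804, 1.28, 1.85 and 0.414 CPM in MDA-MB-231 vehicle, against 2590, 253, 268 and 649 CPM in HCC70 vehicle. EGFR, FOXC1 and VIM were well above that line in MDA-MB-231 vehicle, at 356, 50 and 2210 CPM. Of 6 luminal markers 5 reached 1 CPM in HCC70 and 2 in MDA-MB-231. Of 6 fibroblast markers 1 reached it in HCC70 (COL1A1, 101 ± 7.5 CPM with dexamethasone and 72.1 ± 5.7 CPM with vehicle, while LUM, DCN and COL3A1 were at 0). In MDA-MB-231 3 reached it, with COL1A2 at 23.6 ± 2.1 CPM with dexamethasone and 38.2 ± 6.3 CPM with vehicle. Of 5 leukocyte markers 1 reached it in HCC70 (CD14, 42.3 ± 3 CPM with dexamethasone and 36.4 ± 0.61 CPM with vehicle, while PTPRC stayed below 0.2 CPM) and 0 in MDA-MB-231. MDA-MB-231 dexamethasone replicate 2 and MDA-MB-231 vehicle replicate 1 stood furthest apart from the means of their own groups. The SD over genes of their log2 deviations from those means was 0.199 and 0.217. MDA-MB-231 vehicle replicate 3 came close to them at 0.189, and the other libraries had 0.114 to 0.163. Results that change without a library are stated with that library. In bulk RNA, fewer cells that express a gene and less RNA per cell cannot be told apart.

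**Figure D1:**
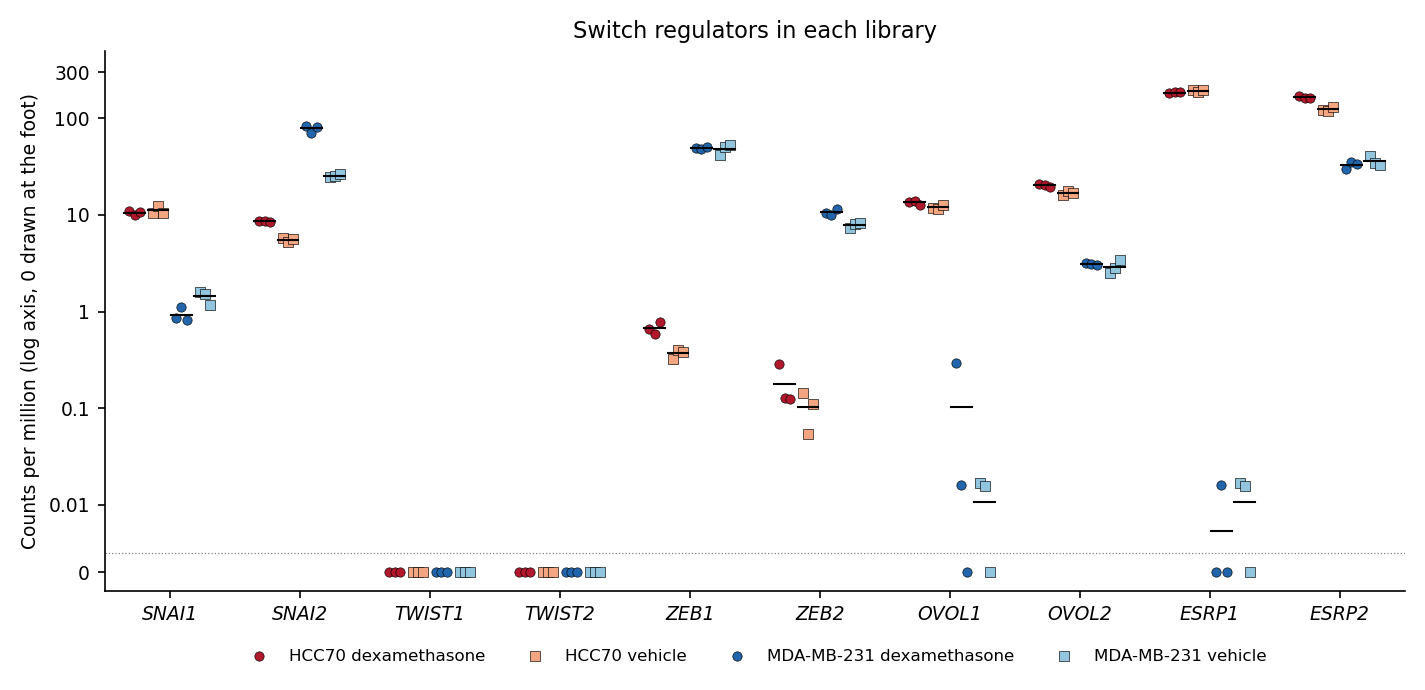
Level of each switch regulator in every library, in CPM on a log axis with 0 drawn at the foot; points are libraries (circles dexamethasone, squares vehicle; reds HCC70, blues MDA-MB-231) and black bars are means of 3. ZEB1, ZEB2 and SNAI2 lie higher in MDA-MB-231, the ESRP genes, the OVOL genes and SNAI1 lie higher in HCC70, and both TWIST genes are at 0 in all 12 libraries.

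The tested mesenchymal-state members were lower in HCC70 vehicle than in MDA-MB-231 vehicle, with SNAI1 as an exception, and the epithelial-state members were higher. In vehicle, all 8 members with enough counts for a test differed between the lines (edgeR quasi-likelihood test, Benjamini-Hochberg adjusted p under 0.05), 5 higher and 3 lower in HCC70. This comparison called 79.2% of 28141 tested genes, 39.2% higher and 40% lower, so a call by itself sets no gene apart and the sizes carry the description. The median of the tested members was 2.17 on the log2 scale, HCC70 over MDA-MB-231, and the median over all genes was −0.03.

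ZEB1 and ZEB2, the zinc-finger homeobox repressors, were the mesenchymal-state members with the widest separation. ZEB1 read 0.327, 0.405 and 0.386 CPM in the vehicle libraries of HCC70, against 41.8, 50.7 and 52.9 CPM in those of MDA-MB-231, a log2 difference of −7.02 ± 0.13 (SE), or 130-fold lower in HCC70 (adjusted p = 4.33e-15). ZEB2 read 0.143, 0.054 and 0.112 CPM in HCC70 vehicle, which rest on 17, 6 and 13 counts, against 7.33, 7.97 and 8.28 CPM in MDA-MB-231 vehicle. The ZEB2 difference was −6.23 ± 0.24, or 75-fold lower in HCC70 (adjusted p = 9.04e-12). All libraries of HCC70 lay far below all libraries of MDA-MB-231 for both genes. SNAI2, which encodes SLUG, differed less, with 5.71, 5.31 and 5.65 CPM in HCC70 vehicle against 24.5, 25.5 and 26.8 CPM in MDA-MB-231 vehicle, 4.61-fold lower in HCC70 (log2 −2.20 ± 0.072, adjusted p = 1.39e-12).

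SNAI1, which encodes SNAIL, ran the other way from ZEB1, ZEB2 and SNAI2. It read 10.6, 12.3 and 10.5 CPM in HCC70 vehicle against 1.61, 1.53 and 1.17 CPM in MDA-MB-231 vehicle, 7.73-fold higher in HCC70 (log2 2.95 ± 0.13, adjusted p = 5.06e-11). No library of MDA-MB-231 came near any library of HCC70.

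TWIST1 and TWIST2, the basic helix-loop-helix members, had 0 counts in all 12 libraries, which total 1424778299 counts, so that 3 counts over them all would be 0.0021 CPM. They were not tested, and the table holds 11496 genes (22.2%) with 0 counts throughout. At this depth no TWIST RNA was detectable in either line with or without dexamethasone.

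The epithelial side showed the widest separations of all. ESRP1 read 197, 185 and 194 CPM in HCC70 vehicle, against 2, 2 and 0 counts in MDA-MB-231 vehicle, and summed over the groups these are 66592 against 4 counts. Scaled for library size, the ratio was 17400 (95% interval 6780 to 63700, counting error only). OVOL1 read 11.9, 11.6 and 12.6 CPM in HCC70 vehicle, again against 2, 2 and 0 counts in MDA-MB-231 vehicle, a ratio of 1090 (425 to 4000).

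ESRP2 and OVOL2 were present in both lines. ESRP2 read 123, 119 and 132 CPM in HCC70 vehicle against 40.3, 34.2 and 32.9 CPM in MDA-MB-231 vehicle, 3.48-fold higher in HCC70 (log2 1.80 ± 0.084, adjusted p = 6.8e-11). OVOL2 read 16.0, 17.9 and 16.9 CPM in HCC70 vehicle against 2.50, 2.81 and 3.40 CPM in MDA-MB-231 vehicle, 5.84-fold higher in HCC70 (log2 2.55 ± 0.098, adjusted p = 8.66e-12). MDA-MB-231 lacked ESRP1 almost entirely and kept ESRP2, its close paralog, while HCC70 held both.

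Divided by the length of the longest coding transcript, the levels can be ordered between genes within a group. In HCC70 vehicle the order was ESRP1 (50.4 ± 1.7 CPM per kb), ESRP2 (32.8 ± 1.7), OVOL2 (10.9 ± 0.61), SNAI1 (6.6 ± 0.61), OVOL1 (3.97 ± 0.16), SNAI2 (2.29 ± 0.089), ZEB1 (0.0595 ± 0.0065) and ZEB2 (0.0107 ± 0.0047), with no overlap between neighbours (SD, n = 3). The order was the same in HCC70 with dexamethasone, and in both groups also when the length of all exons of the gene was used. In MDA-MB-231 with dexamethasone SNAI2 stood first at 32.4 ± 2.7 CPM per kb, above ESRP2 at 8.72 ± 0.69 and ZEB1 at 7.88 ± 0.2, whose ranges overlapped. In MDA-MB-231 vehicle SNAI2 at 10.5 ± 0.49 overlapped ESRP2 at 9.43 ± 1.1, and ZEB1 followed at 7.73 ± 0.94. OVOL2, at 2.01 ± 0.059 with dexamethasone and 1.87 ± 0.29 with vehicle, came next in both MDA-MB-231 groups. Then came ZEB2 (1.11 ± 0.091) above SNAI1 (0.549 ± 0.098) with dexamethasone, and SNAI1 (0.852 ± 0.14) overlapping ZEB2 (0.82 ± 0.051) with vehicle. The place of ZEB2 depended on the length, since over all its exons it averaged 0.426 CPM per kb with dexamethasone and 0.314 with vehicle, below SNAI1 in both groups, whose values stayed as given.

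Members of opposing roles were called higher with dexamethasone in HCC70, although the epithelial side rested on ESRP2 alone. Of the 8 tested members, 3 were called higher and 0 lower, while the comparison called 3.96% of 28141 tested genes, 2.55% higher and 1.4% lower. The members' median log2 change was 0.34 and that of all genes −0.01. The 3 were ZEB1 and SNAI2 of the mesenchymal-state factors and ESRP2 of the epithelial splicing factors. The ESRP2 call was lost in 3 of 22 alternative settings. Its log2 change of 0.42 was 0.22 with an offset for the GC and length trend of each library. Without MDA-MB-231 dexamethasone replicate 2 and vehicle replicate 1, which enter only through the shared estimate of spread and the scaling, 4 members were called, all higher, among 13.5% of all genes tested. No member was lower at an unadjusted p under 0.05 either, with edgeR or with the DESeq2 Wald test.

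ZEB1 was 1.82-fold higher with dexamethasone in HCC70. It had 74, 65 and 88 counts, or 0.661, 0.591 and 0.785 CPM, in the dexamethasone libraries, against 39, 45 and 45 counts, or 0.327, 0.405 and 0.386 CPM, in the vehicle libraries. The groups did not overlap, and the log2 change was 0.87 ± 0.16 (adjusted p = 0.00671, with a range of 0.000279 to 0.0465 over 22 alternative settings). The treated level, 0.679 ± 0.098 CPM, was still a small part of the 48.5 ± 5.9 CPM of MDA-MB-231 vehicle (SD, n = 3 each).

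ZEB1 shares 366 exonic bases with the antisense transcript ZEB1-AS1, and the libraries do not record strand, so reads from the shared bases cannot be told apart. ZEB1-AS1 had more counts than ZEB1 in HCC70, 345, 346 and 381 with dexamethasone and 296, 320 and 302 with vehicle, or 3.21 ± 0.17 and 2.65 ± 0.21 CPM. It was 1.21-fold higher with dexamethasone and did not pass the threshold (log2 0.28 ± 0.11, adjusted p = 0.218). Its part in the ZEB1 result was not tested. Overlaps on the opposite strand were annotated for ZEB2 (1299 bases with ZEB2-AS1) and OVOL1 (1044 with AP001266.1), and one on the same strand for OVOL2 (59 with SNX5), and they carry the same limit.

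SNAI2 was 1.55-fold higher with dexamethasone in HCC70. It read 8.68, 8.72 and 8.40 CPM in the dexamethasone libraries against 5.71, 5.31 and 5.65 CPM in the vehicle libraries, with a log2 change of 0.63 ± 0.072 (adjusted p = 0.000133). Its lowest treated value exceeded its highest vehicle value.

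ESRP2 was 1.33-fold higher with dexamethasone in HCC70. It read 172, 162 and 164 CPM in the dexamethasone libraries against 123, 119 and 132 CPM in the vehicle libraries, with a log2 change of 0.42 ± 0.081 (adjusted p = 0.00933). The groups did not overlap, but the call was lost without HCC70 vehicle replicate 1 (adjusted p = 0.0576), without HCC70 vehicle replicate 2 (0.0615) and with the replicate number as a block within each line (0.078). ESRP2 is GC-rich, at 59.6%, and within HCC70 the deviations of the libraries from the line mean followed GC content with opposite sign by treatment. Spearman's rho across genes was 0.505, 0.387 and 0.362 in the dexamethasone libraries and −0.606, −0.317 and −0.152 in the vehicle libraries. With an offset that removes the GC and length trend of each library, the ESRP2 change in HCC70 was 0.22 on the log2 scale (adjusted p = 0.00909). ESRP2 also shares 149 exonic bases with NFATC3 on the opposite strand, which read 66.7 ± 0.99 CPM with dexamethasone and 72.9 ± 4.5 CPM with vehicle.

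The other tested members did not pass the threshold in HCC70. SNAI1 read 11, 9.95 and 10.7 CPM with dexamethasone against 10.6, 12.3 and 10.5 CPM with vehicle (log2 −0.08, 95% interval −0.33 to 0.17, adjusted p = 0.762). ESRP1 read 182, 185 and 185 CPM with dexamethasone against 197, 185 and 194 CPM with vehicle (log2 −0.06, interval −0.26 to 0.14, adjusted p = 0.769). Both intervals exclude a 2-fold change in either direction.

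Neither OVOL gene passed in HCC70 in the fit of all libraries, although both read slightly higher in each treated library than in any vehicle library. The share of all genes that separate this way was not counted. OVOL2 read 20.7, 20.4 and 19.5 CPM with dexamethasone against 16.0, 17.9 and 16.9 CPM with vehicle (log2 0.26 ± 0.089, adjusted p = 0.147). It passed when the 6 HCC70 libraries were fitted alone (adjusted p = 0.00653) and when MDA-MB-231 dexamethasone replicate 2 and vehicle replicate 1 were left out (0.0271). OVOL1 read 13.7, 14 and 12.8 CPM with dexamethasone against 11.9, 11.6 and 12.6 CPM with vehicle (log2 0.16, interval −0.56 to 0.89, adjusted p = 0.83). Both genes are GC-rich, at 57.7% for OVOL2 and 58.3% for OVOL1, and with the GC and length offset the log2 changes were 0.17 for OVOL2 (adjusted p = 0.363) and 0.02 for OVOL1 (0.99). ZEB2 had 32, 14 and 14 counts with dexamethasone against 17, 6 and 13 with vehicle, and these overlapped (log2 0.79, interval −0.01 to 1.58, adjusted p = 0.277).

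**Figure D2:**
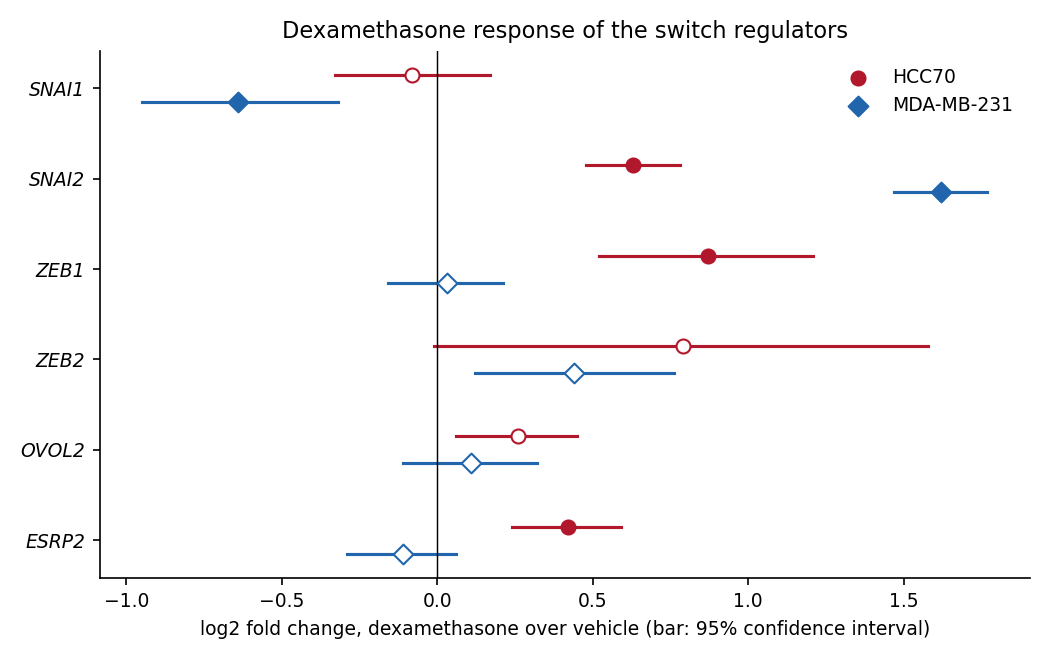
log2 fold change, dexamethasone over vehicle, of the 6 members counted in both lines, with 95% confidence intervals from the edgeR fit; circles are HCC70, diamonds MDA-MB-231, and filled symbols passed an adjusted p of 0.05. SNAI2 is to the right of 0 in both lines and furthest in MDA-MB-231 (1.62), ZEB1 and ESRP2 are filled in HCC70, and SNAI1 is filled left of 0 in MDA-MB-231 (−0.64).

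In MDA-MB-231 the 2 members called were SNAI2 and SNAI1, in opposite directions. Of the 8 tested members, 1 was called higher, SNAI2, and 1 lower, SNAI1, while the comparison called 14.6% of 28141 tested genes, 6.65% higher and 7.96% lower. Beside that share, so small a count is not read as a result about the members as a set. The members' median log2 change was 0.07 and that of all genes −0.01. The count was also 2 without dexamethasone replicate 2 and vehicle replicate 1 together, where 20.3% of genes were called, 3 without dexamethasone replicate 2 alone, and 1 without dexamethasone replicate 1 or without dexamethasone replicate 3.

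SNAI2 was 3.07-fold higher with dexamethasone in MDA-MB-231. It read 83.1, 71.1 and 81.9 CPM in the dexamethasone libraries against 24.5, 25.5 and 26.8 CPM in the vehicle libraries (log2 1.62 ± 0.068, adjusted p = 1.1e-09). The lowest treated library lay far above the highest vehicle library, and the call held in all 22 alternatives, with log2 changes of 1.51 to 1.72.

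SNAI1 was 1.56-fold lower with dexamethasone in MDA-MB-231. It had 111, 138 and 105 counts, or 0.85, 1.11 and 0.813 CPM, in the dexamethasone libraries, against 192, 196 and 134 counts, or 1.61, 1.53 and 1.17 CPM, in the vehicle libraries (log2 −0.64 ± 0.15, adjusted p = 0.00982). The groups came close without overlapping. The call was lost when the 6 MDA-MB-231 libraries were fitted alone (adjusted p = 0.0771), without dexamethasone replicate 1 (0.0505) and without dexamethasone replicate 3 (0.0552), and it held with the GC and length offset (log2 −0.56, adjusted p = 0.00473).

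ZEB1, already abundant in MDA-MB-231, read 49.7, 48.0 and 50.4 CPM with dexamethasone against 41.8, 50.7 and 52.9 CPM with vehicle. Its log2 change was 0.03 with an interval of −0.16 to 0.21 (adjusted p = 0.885). ZEB2 read 10.5, 9.92 and 11.6 CPM with dexamethasone against 7.33, 7.97 and 8.28 CPM with vehicle, so that the groups did not overlap. Its log2 change of 0.44 ± 0.15, or 1.36-fold, did not pass (adjusted p = 0.0626), and it did pass in 8 of 22 alternatives, among them the 6 libraries of the line fitted alone (0.0167) and the GC and length offset (0.027). It also passed without MDA-MB-231 dexamethasone replicate 2 (0.0338) and without HCC70 dexamethasone replicate 1 (0.0214).

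The epithelial members did not pass in MDA-MB-231. ESRP2 read 30.2, 35.4 and 33.6 CPM with dexamethasone against 40.3, 34.2 and 32.9 CPM with vehicle (log2 −0.11, interval −0.29 to 0.06, adjusted p = 0.378). OVOL2 read 3.21, 3.14 and 3.03 CPM with dexamethasone against 2.50, 2.81 and 3.40 CPM with vehicle (log2 0.11, interval −0.11 to 0.32, adjusted p = 0.513). The groups overlapped for both.

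OVOL1 and ESRP1 stayed near 0 in MDA-MB-231. OVOL1 had 38, 2 and 0 counts with dexamethasone against 2, 2 and 0 with vehicle (adjusted p = 0.197), so that its summed counts of 40 against 4 rest on dexamethasone replicate 1, without which the fitted log2 change was −0.43. ESRP1 had 0, 2 and 0 counts with dexamethasone against 2, 2 and 0 with vehicle, and a difference was not detectable at this depth.

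The responses of the lines were then compared with each other, as the HCC70 log2 change minus that of MDA-MB-231. Of the 8 tested members 2 had a higher response in HCC70, ZEB1 and ESRP2, and 1 a lower one, SNAI2, while this comparison called 12.1% of tested genes, 6.96% higher and 5.09% lower. The members' median difference was 0.44 and that of all genes −0.01. Without MDA-MB-231 dexamethasone replicate 2 and vehicle replicate 1 the count was 4, with 21.7% of genes called.

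SNAI2 was higher with dexamethasone in both lines, and less so in HCC70, with a difference of −0.99 ± 0.098 (adjusted p = 1.93e-05) that held in all 21 alternatives run. The ZEB1 difference was 0.84 ± 0.18 (adjusted p = 0.0106), with adjusted p-values of 0.00059 to 0.0451 over the alternatives. The 2 lines start from ZEB1 levels of 0.373 ± 0.041 CPM in HCC70 vehicle and 48.5 ± 5.9 CPM in MDA-MB-231 vehicle.

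The ESRP2 difference was 0.53 ± 0.12 (adjusted p = 0.0103) and did not hold with the GC and length offset, which corrects for both together. There it was 0.08 (adjusted p = 0.479), as ESRP2 then changed by 0.22 in HCC70 and by 0.14 in MDA-MB-231 on the log2 scale, and with the replicate block within line it had an adjusted p of 0.0612. The SNAI1 difference of 0.56 ± 0.19 did not pass (adjusted p = 0.0666), so the fall of SNAI1 in MDA-MB-231 was not shown to differ from its change in HCC70. It passed in 4 of 21 alternatives, among them without MDA-MB-231 dexamethasone replicate 2 (0.0169) and without MDA-MB-231 vehicle replicate 3 (0.0169).

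**Figure D3:**
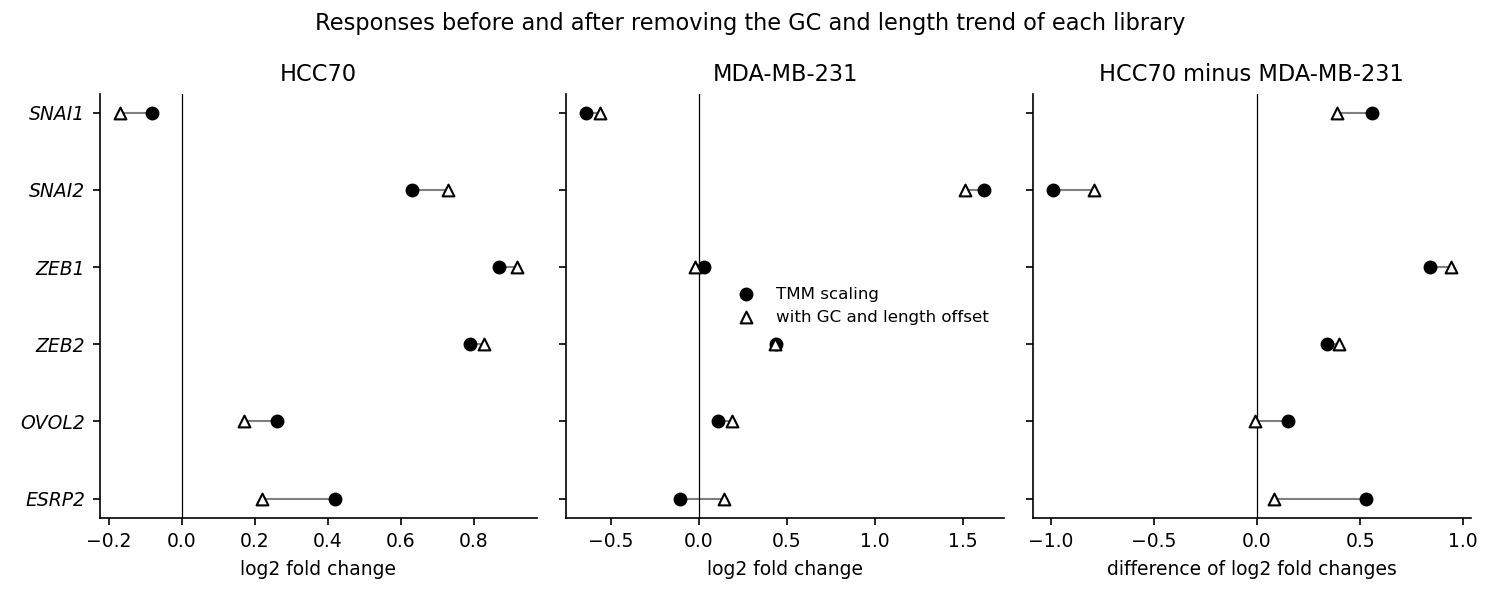
log2 fold change of 6 members, dexamethasone over vehicle, in HCC70 and in MDA-MB-231, and the difference of both; filled circles are the TMM-scaled fit and open triangles the same fit with an offset removing the GC and length trend of each library. The ESRP2 difference goes to 0.08, where it was 0.53, while SNAI2 and ZEB1 keep their sides of 0 in HCC70 and in the difference.

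The microRNAs opposite the ZEB genes could be followed only through reads over their precursor entries in the polyA libraries, which are not a measure of the mature microRNA. These 6 entries were chosen after their values had been seen, so any test of them is a description only. In HCC70 MIR200B read 4.10, 4.11 and 3.26 CPM with dexamethasone against 2.27, 2.34 and 2.76 CPM with vehicle. MIR200A read 2.50, 2.01 and 1.79 CPM with dexamethasone against 1.26, 1.25 and 1.52 CPM with vehicle. MIR429 read 5.44, 5.34 and 4.84 CPM with dexamethasone against 3.86, 3.47 and 4.78 CPM with vehicle. For these 3 entries of the chromosome 1 cluster, no treated library overlapped a vehicle library. How many of all genes separate this way was not counted. None of the 3 passed for HCC70 in the edgeR fit (adjusted p = 0.0746 for MIR200B, 0.16 for MIR200A and 0.256 for MIR429). The HCC70 libraries followed GC content by treatment, and its part in these values was not tested. ZEB1 was called higher with dexamethasone in the same libraries.

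The chromosome 12 entries and MIR205 were sparse in HCC70. MIR200C had 12 counts summed over the dexamethasone libraries against 16 over the vehicle libraries, and MIR141 had 28 with dexamethasone against 21 with vehicle. MIR205 had 120 counts with dexamethasone against 168 with vehicle. In MDA-MB-231 every one of the 6 was at or near 0, with at most 2 summed counts with dexamethasone and at most 10 with vehicle. MIR200B, with 0, 0 and 0 counts against 7, 1 and 2, was called lower with dexamethasone there (edgeR adjusted p = 0.032). Its response was also called different between the lines (adjusted p = 0.0222). Both calls rest on these few counts. The line with high ZEB1 and ZEB2 had almost no reads over any of these precursors.

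**Figure D4:**
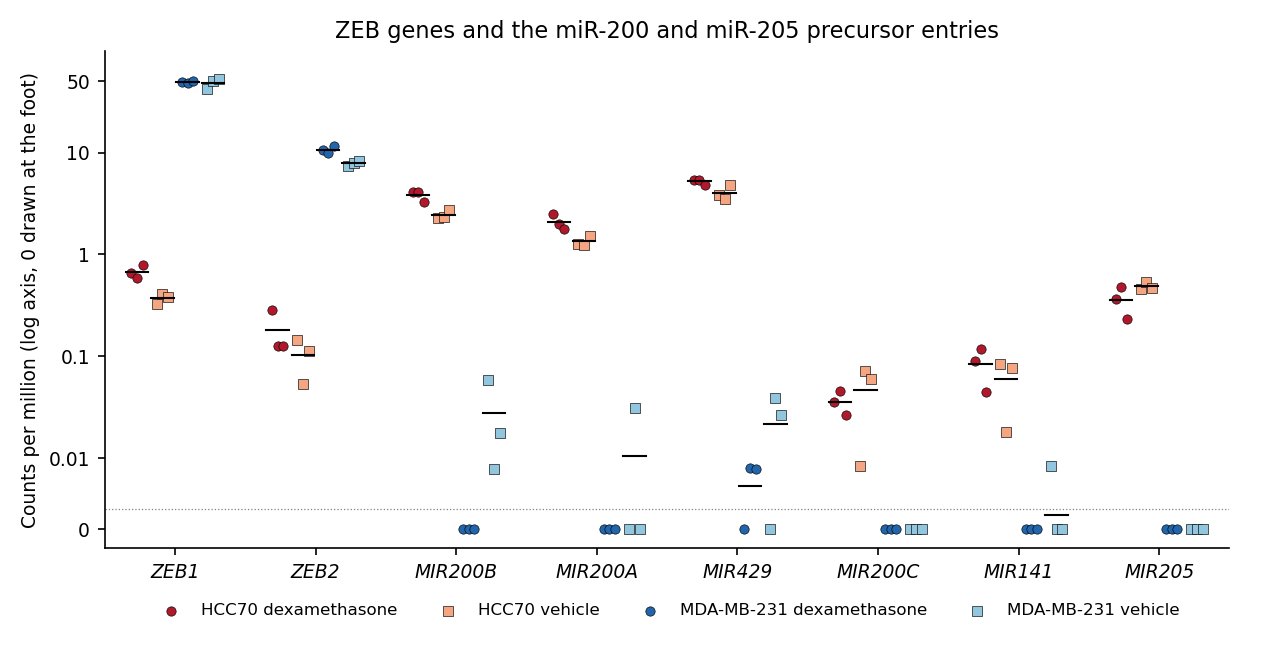
ZEB1, ZEB2 and the precursor entries of the miR-200 family and miR-205 in every library, in CPM on a log axis with 0 drawn at the foot; circles are dexamethasone, squares vehicle, reds HCC70, blues MDA-MB-231, and black bars means of 3. The ZEB genes are high where the precursor entries are at or near 0, in MDA-MB-231.

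The ZEB1 promoter is shown because ZEB1 was the member whose dexamethasone call in HCC70 came from the lowest level. RefSeq (GRCh38.p14) promoter windows were available for ZEB1, with 7 start sites, ZEB2 and TWIST2. The sequence is the 250 bases before the most upstream ZEB1 start, chr10:31318167-31318416 on the plus strand, with an E-box in capitals, outside the annotated exons of ZEB1 in GENCODE v29.
ZEB1 promoter: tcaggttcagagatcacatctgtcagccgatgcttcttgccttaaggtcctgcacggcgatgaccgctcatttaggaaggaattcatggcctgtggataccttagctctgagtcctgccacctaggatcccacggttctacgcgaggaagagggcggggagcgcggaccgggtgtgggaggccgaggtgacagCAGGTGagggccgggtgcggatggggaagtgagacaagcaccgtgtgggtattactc
The E-box searched was CAGGTG, or CACCTG on the other strand, the form that SNAIL and ZEB proteins bind. It occurred 1 time here and 2 times before the third ZEB1 start. It was absent before the other ZEB1 starts and from the ZEB2 window. Of 35116 promoter windows of 250 bases, 17.5% hold it, a share for a single window, whereas ZEB1 has 7. The half-site of the glucocorticoid receptor, AGAACA or TGTTCT, was absent from the 7 ZEB1 windows and from the ZEB2 window, and 12.4% of all windows hold it. This says only that these letters are not in these windows.

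Epithelial genes downstream of the switch were mostly higher in HCC70 and mesenchymal genes mostly lower. Of 27 epithelial genes known to be repressed by SNAIL, ZEB or TWIST factors, 25 were higher and 2 lower in HCC70 vehicle than in MDA-MB-231 vehicle, with a median log2 difference of 3.76 where all genes had −0.03. As 39.2% of all tested genes were called higher and 40% lower here, the counts of the lists in vehicle are read against those shares. RAB25, a vesicle-trafficking GTPase of epithelia, read 92.7 ± 3.2 CPM in HCC70 vehicle and 0.0159 ± 0.02 CPM in MDA-MB-231 vehicle. CDH3, which encodes P-cadherin, read 649 ± 19 CPM in HCC70 vehicle and 0.414 ± 0.095 CPM in MDA-MB-231 vehicle. KRT18 and PKP2 were the 2 that were lower in HCC70, by 1.62-fold and 1.22-fold. CDH1, which encodes E-cadherin and was picked after its values were seen, read 517 ± 24 CPM in HCC70 vehicle and 2.28 ± 0.45 CPM in MDA-MB-231 vehicle (SD, n = 3 each).

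Among 22 tested mesenchymal genes 5 were higher and 15 lower in HCC70 vehicle, with a median of −2.0. CDH11, a mesenchymal cadherin, had 0 counts in HCC70 vehicle and 126 ± 6.3 CPM in MDA-MB-231 vehicle, at least 14500-fold lower in HCC70 against a limit of 3 counts over the group. The receptor kinase gene AXL read 0.0483 ± 0.033 CPM in HCC70 vehicle and 1850 ± 360 CPM in MDA-MB-231 vehicle. MMP2 and MMP9, matrix metalloproteinases, were among the 5 higher in HCC70, by 11-fold and 6.72-fold.

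Other factors for the epithelial state were mostly on the HCC70 side, 12 of 13 tested higher and 1 lower. GRHL2, which cooperates with the OVOL genes in epithelia, read 115 ± 2.6 CPM in HCC70 vehicle and 0.0765 ± 0.042 CPM in MDA-MB-231 vehicle, and FOXA1 read 51.1 ± 0.57 CPM in HCC70 vehicle and 0.0223 ± 0.013 CPM in MDA-MB-231 vehicle. KLF4 was 1.98-fold lower in HCC70. Of 15 tested factors for the mesenchymal state 5 were higher and 8 lower in HCC70. HMGA2, a chromatin protein that activates SNAI1 and TWIST1, had 0 counts in HCC70 vehicle and 39.2 ± 3 CPM in MDA-MB-231 vehicle, at least 4530-fold lower in HCC70. PRRX2 was 160-fold and KLF8 29-fold higher in HCC70.

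With dexamethasone, the epithelial target genes of the switch were called in 1 direction in HCC70 and in both directions in MDA-MB-231. The shares of all tested genes, against which this and the next lists are read, were 2.55% higher and 1.4% lower in HCC70, and 6.65% and 7.96% in MDA-MB-231. For HCC70 they were 8.86% and 4.67% without MDA-MB-231 dexamethasone replicate 2 and vehicle replicate 1, 3.78% and 2.21% with DESeq2, and 8.88% and 9.43% at an unadjusted p under 0.05. The lists were not counted with the GC and length offset. The part of the GC trend of the libraries in these list counts, and in the differences between the lines, was therefore not tested. In HCC70 4 of 27 were higher and 0 lower, with a median log2 change of 0.13, among them KRT19, a simple-epithelium keratin, 1.64-fold higher, and the desmosome gene PKP2, 1.61-fold higher. Without MDA-MB-231 dexamethasone replicate 2 and vehicle replicate 1, 11 were higher and 0 lower, and at an unadjusted p under 0.05 in the fit of all libraries 10 were higher and 0 lower. DESeq2 called 4 and 0. In MDA-MB-231 2 were higher and 7 lower, with a median of −0.23. PKP2 (1.92-fold) and CLDN7 (1.6-fold) were higher there, and CLDN4 (2.74-fold) and CLDN3 (2.02-fold), tight-junction claudins, were lower. In the test of the difference between the lines, 8 of the 27 had a higher response in HCC70 and 1 a lower one, where 6.96% and 5.09% of all genes did. CDH1 was at 539 ± 7.4 CPM with dexamethasone and 517 ± 24 CPM with vehicle in HCC70 (adjusted p = 0.864), and at 1.82 ± 0.46 CPM with dexamethasone and 2.28 ± 0.45 CPM with vehicle in MDA-MB-231 (adjusted p = 0.225).

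The mesenchymal genes gave 2 higher and 0 lower of 22 tested in HCC70 (median 0.16) and 4 higher and 5 lower in MDA-MB-231 (median −0.15). In HCC70 the count was 8 higher and 0 lower without MDA-MB-231 dexamethasone replicate 2 and vehicle replicate 1, 4 and 0 with DESeq2, and 6 and 0 at an unadjusted p under 0.05. LOX, a collagen cross-linking enzyme, was 1.59-fold higher in HCC70, and ITGA5, the fibronectin receptor subunit, was 2.59-fold higher in MDA-MB-231. COL1A1 (1.94-fold) and MMP9 (3.5-fold, at 0.0264 ± 0.021 CPM with dexamethasone and 0.0943 ± 0.0098 CPM with vehicle) were lower in MDA-MB-231. VIM, picked after its values were seen, was at 2250 ± 180 CPM with dexamethasone and 2210 ± 91 CPM with vehicle in MDA-MB-231 (adjusted p = 0.91). FN1, which encodes fibronectin, was 1.44-fold higher with dexamethasone in MDA-MB-231 (adjusted p = 0.00408) and did not pass in HCC70 (adjusted p = 0.325). Its response differed between the lines by −0.73 on the log2 scale, HCC70 minus MDA-MB-231 (adjusted p = 0.00766).

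Other factors of the epithelial state gave 3 higher and 0 lower of 13 tested in HCC70 (median 0.10), with EHF 1.53-fold and KLF4 1.48-fold higher. That split depended on the libraries that stood apart, since without both of them 6 were higher and 5 lower, and at an unadjusted p under 0.05 it was 4 higher and 5 lower (DESeq2 called 3 and 1). In MDA-MB-231 they gave 3 higher and 3 lower (median −0.08). ELF3, an epithelial ETS factor, was 6.37-fold lower there, at 1.17 ± 0.031 CPM with dexamethasone and 7.47 ± 1.8 CPM with vehicle, TFAP2A was 1.74-fold lower, and TFAP2C (1.95-fold) and KLF5 (1.6-fold) were higher. The ELF3 response differed between the lines by 2.98 ± 0.19 on the log2 scale, HCC70 minus MDA-MB-231 (adjusted p = 6.93e-07). Of the mesenchymal-state factors, 0 of 15 were higher and 1 lower in HCC70 (ETS1, 1.26-fold), with 1 and 3 at an unadjusted p under 0.05, 0 and 1 with DESeq2, and 2 and 3 without both libraries. In MDA-MB-231 1 was higher and 4 lower, with KLF8 1.67-fold higher and SOX4 2.01-fold lower.

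Of the splicing regulators that act beside the ESRP proteins few passed with dexamethasone. In HCC70 0 of 18 tested passed in either direction with edgeR, 1 was higher with DESeq2, and 1 was higher and 2 lower at an unadjusted p under 0.05. Without both MDA-MB-231 libraries that stood apart, 1 was higher and 1 lower. In MDA-MB-231 1 was higher, MBNL1 (1.3-fold), and 2 were lower, RBM47 (1.6-fold) and RBFOX2 (1.17-fold). In vehicle 7 of the 18 were higher and 9 lower in HCC70, also near the share of all genes, and RBM24 and CELF2 were the widest of the lower ones. CELF2 read 0.0204 ± 0.018 CPM in HCC70 vehicle and 22.9 ± 1.8 CPM in MDA-MB-231 vehicle, and RBM24 had 0 counts in HCC70 vehicle, at least 936-fold lower. MBNL3 was 8.41-fold higher in HCC70. The deposited counts are sums per gene, so splice forms of CD44 or FGFR2 were not analysed here. Of 22 corepressors and stability regulators of the SNAIL and ZEB proteins, 0 were higher and 1 lower in HCC70 with dexamethasone (EZH2, 1.24-fold), where DESeq2 also called 0 and 1, 2 and 4 passed without both of those libraries, and 1 and 4 passed at an unadjusted p under 0.05. In MDA-MB-231 2 were lower (FBXL14, 2.48-fold, and FBXO45, 1.22-fold, both of F-box proteins). In vehicle 11 of the 22 were higher and 8 lower in HCC70, a share near the 79.2% of all genes called. GSK3B, a kinase that marks SNAIL for degradation, was 3.92-fold higher in HCC70. PRKD1 read 2.22 ± 0.52 CPM in HCC70 vehicle and 0.0026 ± 0.0045 CPM in MDA-MB-231 vehicle. SUV39H1 (5.13-fold) and BTRC (2.08-fold) were lower in HCC70.

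**Figure D5:**
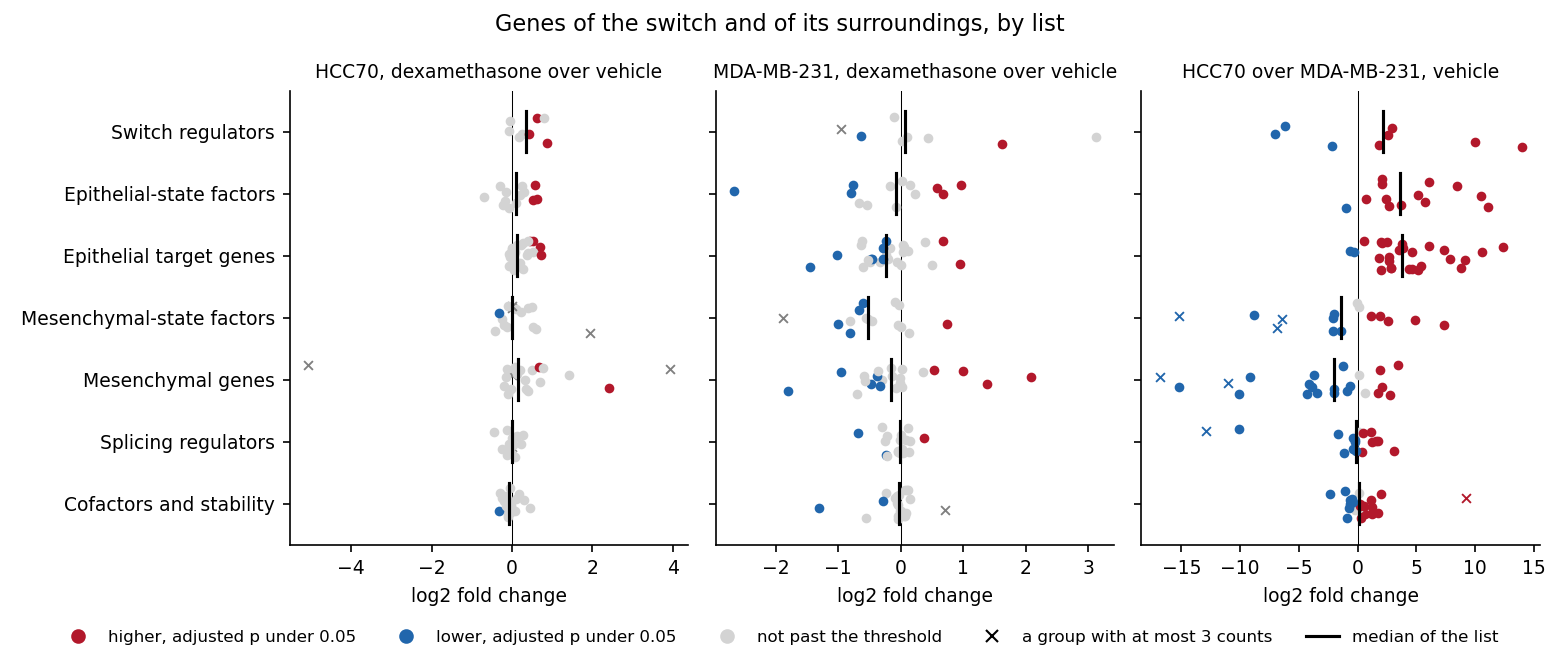
log2 fold change of every tested gene in the 7 lists, in 3 comparisons; red and blue points passed an adjusted p of 0.05, crosses are genes with at most 3 summed counts in a group, whose fitted fold is not a bound, and black bars are medians. The epithelial lists lie right of 0 and the mesenchymal lists mainly left of 0 in the comparison of the lines, and few points pass with dexamethasone in HCC70.

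Genes with the most similar pattern were looked up for each member over the 12 libraries, as a description, since libraries share their line and treatment. The log2 CPM of SNAI2 was most like that of ERRFI1, a feedback inhibitor of EGFR (Pearson's r = 0.999), and of TGFBR2, a TGF-beta receptor (0.998). After subtraction of each line's mean, which leaves the treatment and the spread between replicates, it was most like PDK4, a pyruvate dehydrogenase kinase (0.997), and ERRFI1 (0.994). ESRP1 was most like CDH3 and TSPAN15 across the libraries. For ESRP2 the nearest within lines were PLA2G15 (0.983) and UNC5B (0.979), and for SNAI1 they were BCL3 (0.961) and PPARD (0.957).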

How the data were processed

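PolyA RNA was made into non-stranded libraries with a transposase and sequenced as paired ends of 50 bases, per the labels' protocols. The authors deposited whole-number counts per gene, not scaled between libraries. They used hg19, TopHat 1.4.1, Cufflinks 1.3.0 and bedtools, per the submitters' processing notes, whose roles are not given in the sources used here. Whether a read pair was counted once is not stated either. All 12 columns were matched to libraries by their names, and all 10 members by symbol. Since no hg19 annotation was used, GC content, lengths and exon overlaps come from GENCODE v29 (GRCh38).

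In edgeR 4.0.16 (R 4.3.3), filterByExpr with a minimum count of 10 left 28141 genes, and TMM gave the scaling factors. All 12 libraries entered one quasi-likelihood fit with 4 group means. Tests were two-sided, and p-values were adjusted over all tested genes by Benjamini-Hochberg, with calls at 0.05. Ratios against groups with few counts carry exact 95% counting intervals. CPM are means ± SD of 3 libraries.

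The members and lists were chosen with earlier results of these data known. Named beside the members are, for each list and comparison, the 2 passing genes with the largest change in each direction, for each member whose log2 CPM averaged 0 or more the 2 genes with the most similar pattern, genes whose exons overlap a member, and NR3C1 and FKBP5. Alternatives were DESeq2 1.42.0 size factors and Wald test, no low-count filter, a minimum of 5 CPM in at least 3 libraries, replicate blocks, the 6 libraries of a comparison alone, a GC and length offset (89.8% of tested genes have both), and libraries left out. One gene that this rule names is not reported here.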

Additional observations from a re-analysis of the deposited data

Results flagged for a closer look

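The dexamethasone responses of 3 members differed between the lines in a test of the difference itself (edgeR, HCC70 minus MDA-MB-231 on the log2 scale). For SNAI2 the difference was −0.99, with a change of 0.63 in HCC70 and 1.62 in MDA-MB-231. For ZEB1 it was 0.84, with 0.87 in HCC70 and 0.03 in MDA-MB-231. For ESRP2 it was 0.53, with 0.42 in HCC70 and −0.11 in MDA-MB-231, and it was 0.08 once the GC and length trend of each library was removed.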

How the results depend on the processing

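No called result changed sign. The count of all genes called in HCC70 (1114) was 1686 with the DESeq2 Wald test, 4828 with the 6 HCC70 libraries alone, 1996 with the GC and length offset, and 3867 without both MDA-MB-231 libraries that stood apart. With 1 library left out it ranged from 510 (HCC70 vehicle replicate 1) to 1775 (MDA-MB-231 vehicle replicate 1), and it was 587, 603 and 610 without HCC70 dexamethasone replicate 1, 2 and 3, and 594 without HCC70 vehicle replicate 2. In MDA-MB-231 (4110) it was 2116 with the 6 libraries alone, and 2422, 6452 and 2463 without MDA-MB-231 dexamethasone replicate 1, 2 and 3. For the difference of the responses (3391) it was 6206 without both of those libraries and ranged from 1614 (without HCC70 vehicle replicate 1) to 6259 (without MDA-MB-231 dexamethasone replicate 2). It was 1850, 2142 and 1954 without HCC70 dexamethasone replicate 1, 2 and 3, 1917 without HCC70 vehicle replicate 2, 1827 and 1755 without MDA-MB-231 dexamethasone replicate 1 and 3, and 5789 without MDA-MB-231 vehicle replicate 3. For the lines in vehicle (22294) it was 11980 with the strict filter, which tests fewer genes. The members called in MDA-MB-231 (2) ranged from 1 to 3 with 1 library left out. Where no reason is given, the cause was not tested.

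The replicate numbers did not pair the libraries. Same-numbered libraries of HCC70 correlated at −0.161, 0.0715 and 0.00788 in their deviations, and those of MDA-MB-231 at −0.484, −0.203 and 0.24. Across numbers, MDA-MB-231 dexamethasone replicate 2 correlated at 0.61 with vehicle replicate 1 and at −0.551 with vehicle replicate 3. Dexamethasone replicate 1 of that line correlated at 0.474 with vehicle replicate 3. The cause of this structure was not tested. With the replicate block, 695 genes were called in HCC70 and 2059 for the difference. With the block within line, these were 481 and 1480, with 2549 in MDA-MB-231, where 4 members were called (SNAI1, SNAI2, ZEB2 and OVOL1). Depth limits ESRP1 and OVOL1 in MDA-MB-231 and ZEB2 in HCC70, which rest on few counts.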
